A study of Homo sapiens with 8 samples.

Results

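Small nucleolar RNA (snoRNA) host RNAs and the RNA subunit of RNase MRP were followed across all 8 libraries of an experiment in which an enhancer was repressed in NCI-H2009. This is an established cell line from a human adenocarcinoma of the lung. The genes were chosen by name: GAS5, SNHG1, SNHG5, SNHG6, SNHG7, SNHG8, SNHG12, ZFAS1 and RMRP. Of these 9 names, 7 matched a symbol of the expression table, and ZFAS1 was found under its older symbol ZNFX1-AS1 through its Ensembl identifier. SNHG8 is not analysed here. The 8 genes measured, 7 hosts and RMRP, stand among 52576 genes in the table, and all 8 were among the 13979 genes tested, which had a mean of at least 1 RPKM (reads scaled to the length of the gene model and to the depth of the library).

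A snoRNA host RNA carries snoRNAs in its introns. After splicing, the intron yields the snoRNA, which guides the chemical modification or cleavage of ribosomal RNA, while the spliced exons form the host RNA. Many host genes, coding and non-coding, start transcription in a run of pyrimidines as ribosomal protein genes do, and several non-coding host RNAs are degraded when they are translated, by nonsense-mediated decay. RMRP is different: it is a short RNA made by RNA polymerase III, has no poly(A) tail, and is the catalytic RNA of RNase MRP, which cuts the precursor of ribosomal RNA.

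Every library came from cells grown in RPMI medium with FBS that carried dCas9-KRAB, in which a Cas9 that no longer cuts its target is fused to a domain that recruits chromatin repressors. The controls were cells given no guide RNA (2 libraries) and cells given a guide without a human target, here called non-targeting (2 libraries). The e3 cells were given guide 1 (2 libraries) or guide 2 (2 libraries), which both address the enhancer that the labels call e3, studied as an enhancer of the transcription factor gene MYC. Total RNA was extracted, and polyadenylated RNA was then selected. Nothing in the labels says that libraries sharing a group were made from separate cultures. The p-values here measure only how these libraries spread, and that spread may be technical.

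The sequences behind the results are shown first. RMRP gave the largest difference among the 8 genes, and its whole RNA is only 264 bases long in GENCODE 29 (GRCh38, chr9:35657754-35658017, minus strand, a single exon), printed with T for U:
RMRP: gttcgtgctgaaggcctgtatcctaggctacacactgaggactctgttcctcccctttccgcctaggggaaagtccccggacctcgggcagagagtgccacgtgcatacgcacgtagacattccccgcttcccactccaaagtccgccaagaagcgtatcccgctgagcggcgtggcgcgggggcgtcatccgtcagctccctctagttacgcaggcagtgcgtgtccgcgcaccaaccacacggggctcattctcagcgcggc

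The start sites of the hosts are shown because a pyrimidine run there is the sequence feature that host genes are known for. Each line holds 15 bases before and 15 bases from the start annotated by RefSeq (GRCh38.p14), on the gene's own strand, with capitals for the unbroken run of C and T that begins at the start:
GAS5: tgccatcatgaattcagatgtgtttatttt
SNHG1: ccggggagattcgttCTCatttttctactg
SNHG5: gctgcgcacttcggtCTTTTacgtcggcct
SNHG7: gcttcccttctcgtcCTCTgcgtgcgccgg
SNHG12: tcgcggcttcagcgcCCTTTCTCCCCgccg
ZFAS1: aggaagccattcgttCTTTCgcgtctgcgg

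These lie at chr1:173869031-173869060, minus strand (GAS5), chr11:62855871-62855900, minus strand (SNHG1), chr6:85678719-85678748, minus strand (SNHG5), chr9:136728170-136728199, minus strand (SNHG7), chr1:28581859-28581888, minus strand (SNHG12), and chr20:49278627-49278656, plus strand (ZFAS1). In 5 of these 6 hosts the RefSeq start was a C in a run of pyrimidines, and the start used for GAS5 was the exception. Only 1 start per gene was used, and other starts of these genes, GAS5 included, were not examined. A run of at least 5 bases began at the start of SNHG5, SNHG12 and ZFAS1, 3 of the 6, beside 5.17% of all 35116 RefSeq windows. The run held 11 bases in SNHG12, 5 in SNHG5 and ZFAS1, 4 in SNHG7 and 3 in SNHG1. The share of windows with such a run in the hosts is a description and was not tested. Windows from 250 bases before to 50 bases after the start were also searched for CACGTG, the E-box bound by MYC with its partner MAX, and for TATAAA, both on either strand. No RefSeq window was found for SNHG6 and RMRP, so these were not searched. CACGTG was found in 1 of the 6 hosts, SNHG7, and in 7.26% of all windows. TATAAA was found in 2 of the 6 and in 11.5% of all windows. The SNHG7 window (GRCh38.p14, chr9:136728135-136728434, minus strand) is the only one with an E-box, and it is printed with both motifs and the pyrimidine run in capitals:
SNHG7: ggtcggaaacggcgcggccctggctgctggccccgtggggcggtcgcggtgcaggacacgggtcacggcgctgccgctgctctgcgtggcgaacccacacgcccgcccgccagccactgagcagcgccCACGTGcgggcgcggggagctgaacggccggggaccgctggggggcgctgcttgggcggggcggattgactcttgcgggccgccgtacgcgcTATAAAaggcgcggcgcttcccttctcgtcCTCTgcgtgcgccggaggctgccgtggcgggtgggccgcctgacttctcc

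In SNHG7 the E-box began 122 bases and the TATAAA 30 bases before the start. The RMRP RNA printed above also holds CACGTG, within the RNA itself and not in a searched window. A match describes these letters only, and binding was not measured here.

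The libraries were shallow. Read numbers inferred from the steps between RPKM values lay between 3875080 and 5754470 per library, and 18240 to 19508 genes were above 0. The level of MYC averaged 81.6 ± 9.20 RPKM in control libraries against 39.6 ± 3.87 RPKM in e3 libraries (SD, n = 4 each; log2 change -1.02 ± 0.10, SE; limma, Benjamini-Hochberg adjusted p = 0.00215). Epithelial markers were abundant in every library (EPCAM 211.0 to 254.1 RPKM), the lung factor NKX2-1 was present (23.2 to 43.2 RPKM), and the surfactant gene SFTPB was at or near 0 (at most 0.117 RPKM), as were the leukocyte markers PTPRC and CD3E.

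The host RNAs spanned a 12.7-fold range of mean level. ZFAS1, host of the SNORD12 family, was the most abundant, with a mean of 59.7 ± 13.6 RPKM over the 8 libraries (SD), and it exceeded the next gene in all 8. SNHG1 hosts SNORD22 and the SNORD25 to SNORD31 family, and GAS5 hosts SNORD44, SNORD47 and SNORD74 to SNORD81. These hosts followed with 29.1 ± 3.86 and 26.9 ± 7.96 RPKM, in that order. Their order was not fixed: SNHG1 was above GAS5 in 3 of the 8 libraries. SNHG6, the host of SNORD87, averaged 19.2 ± 2.03 RPKM and was above SNHG5 in every library. SNHG5, the host of SNORD50, averaged 13.8 ± 1.39 RPKM. RMRP averaged 8.03 ± 5.02 RPKM and was above SNHG7 in 5 of the 8 libraries, so the order of that pair was not fixed either. SNHG7, host of the SNORA17 family, averaged 5.84 ± 0.66 RPKM, and SNHG12, which hosts SNORA44, SNORA61, SNORA16A and SNORD99, averaged 4.72 ± 0.79 RPKM. SNHG7 exceeded SNHG12 in 7 of the 8 libraries.

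Gene model length bears on these levels. The deposited values of GAS5 corresponded to a model of 179 bases, against 3631 bases for all its GENCODE 29 exons, so its level rested on 12 to 31 reads per library. SNHG6 corresponded to 3204 bases, against 1247 bases of GENCODE 29 exons, so its level and its read number depend on a longer model. RMRP corresponded to 264 bases, its full length, and to 2 to 18 reads. The other hosts rested on more reads: 49 to 89 for SNHG12, 52 to 81 for SNHG7, 57 to 80 for SNHG5, 70 to 127 for SNHG1, 105 to 229 for ZFAS1 and 224 to 346 for SNHG6. Libraries of 1 group differed most in RMRP, by 3.35-fold between the libraries of guide 2. They differed least in SNHG6, by at most 1.07-fold.

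**Figure D1:**
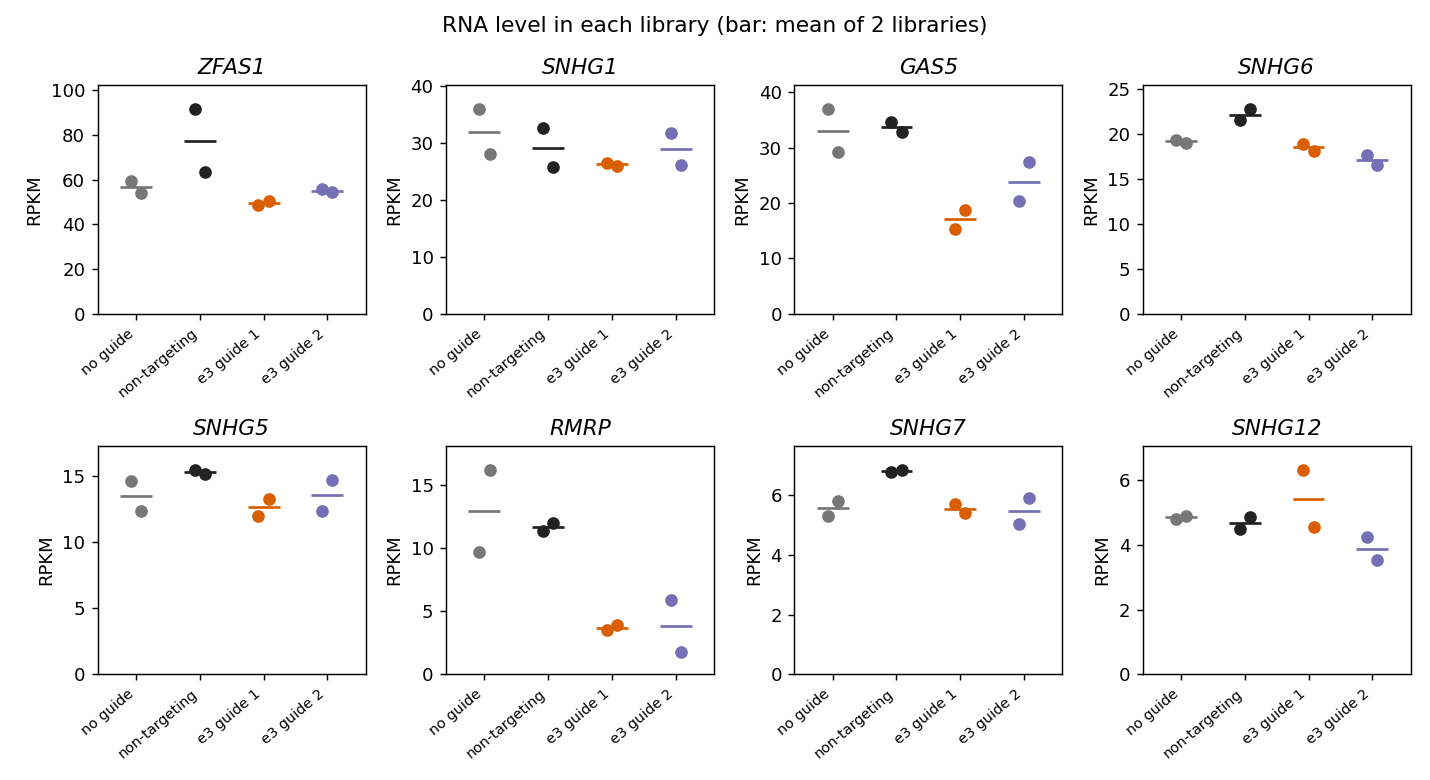
Level in RPKM (vertical axes, each from 0) of the 7 host RNAs and RMRP in each of the 8 libraries, in order of mean level; points are libraries and bars the mean of the 2 libraries of a group. The 4 e3 libraries lie below the 4 control libraries in GAS5, SNHG6 and RMRP, and the groups overlap in the other 5 genes.

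The main question of the series is what changes when e3 is repressed, so the 4 e3 libraries were set against the 4 control libraries. RMRP and GAS5 fell, and no host rose. Of the 8 genes, 2 were called lower and 0 higher, beside 5.2% of all tested genes called in either direction and, by direction, 2.58% called lower and 2.63% called higher. Neither call held when a correlation within groups was estimated (adjusted p of 0.0627 for RMRP and 0.0899 for GAS5). All 8 estimates were below 0, with a median log2 change of -0.17, or -0.14 over the 7 hosts alone, against -0.02 over all tested genes. The groups did not overlap in RMRP, GAS5 and SNHG6, beside 7.51% of all tested genes whose 4 e3 values all lay below the 4 control values. No host lay wholly above the controls, as 7.58% of tested genes did.

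Control cells gave RMRP levels of 9.68 and 16.2 RPKM where no guide was used, and of 11.4 and 11.9 RPKM where it was the non-targeting one. The e3 cells gave 3.48 and 3.91 RPKM for guide 1, then 5.92 and 1.77 RPKM for guide 2. Every e3 library was below every control library, and the lowest and the highest e3 values both came from guide 2. The means were 12.3 ± 2.75 and 3.77 ± 1.71 RPKM (SD, n = 4 each), a ratio of 0.307. The log2 change was -1.53 ± 0.26 (SE; limma, Benjamini-Hochberg adjusted p = 0.0126).

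Behind these values of RMRP were 59 reads in the 4 control libraries and 19 in the 4 e3 libraries. Pooled over libraries, the level was 12.2 RPKM for the controls (95% Poisson interval 9.28 to 15.7) against 3.94 RPKM for the e3 guides (2.37 to 6.15). These pooled intervals did not overlap, whereas some intervals of single e3 and control libraries did. The intervals cover counting error only. Fewer cells expressing RMRP and less RMRP per cell cannot be told apart in bulk RNA. The call held without any single library (adjusted p of 0.0259 to 0.0339 over the 8 omissions) and was lost when the libraries of a group were averaged (adjusted p = 0.211).

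RMRP reached these libraries although polyadenylated RNA had been selected, so other small RNAs without a poly(A) tail were examined beside it. Of 31 such symbols 24 were in the table, with 29 genes, of which 4 were tested with 0 called by limma and 1 at an unadjusted p under 0.05. Without RN7SL1, the signal recognition particle RNA, their levels summed to 24.4 and 29.8 RPKM in cells lacking a guide and to 34.7 and 34.8 RPKM in non-targeting cells. The sums were 17.3 and 16.1 RPKM for guide 1, and for guide 2 they were 36.1 and 9.98 RPKM. Of the 4 e3 libraries, the first of guide 2 had the highest of these sums and the most RMRP reads. The second of guide 2 had the lowest sum and the fewest RMRP reads. With RN7SL1 included, the sums were 105.3 and 93.0 RPKM in cells lacking a guide and 146.0 and 124.5 RPKM in non-targeting cells. They were then 132.8 and 72.9 RPKM for guide 1 and 121.2 and 70.6 RPKM for guide 2. The highest e3 sum was then that of the first guide 1 library. The part of these RNAs in the RMRP result was not tested.

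RN7SK, the polymerase III RNA that restrains the elongation factor P-TEFb, is another RNA of this list with enough reads to compare by library (6 to 40). It is included in the sums above, so it is not a measure separate from them. It measured 12.9 and 15.7 RPKM in cells lacking a guide, 18.8 and 14.6 RPKM in non-targeting cells, 9.01 and 8.58 RPKM in guide 1 cells, and 21.0 and 4.23 RPKM in guide 2 cells. Its groups overlapped, and the first guide 2 library was the highest of all 8. Its log2 change was -0.67 ± 0.35 (adjusted p = 0.294, limma with Benjamini-Hochberg adjustment). The Cajal body RNA SCARNA12 had a log2 change of -0.70, the rRNA-processing RNA SNORD3A 0.58 and RN7SL1 -0.15, with adjusted p of 0.217, 0.668 and 0.765 in the same fit. RN7SL1 had more reads than RN7SK, 66 to 156 per library. It measured 81.0 and 63.2 RPKM in cells lacking a guide and 111.3 and 89.7 RPKM in non-targeting cells. Guide 1 cells gave 115.5 and 56.8 RPKM, and guide 2 cells 85.2 and 60.6 RPKM. The groups of RN7SL1 overlapped, and the first guide 1 library was the highest.

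**Figure D2:**
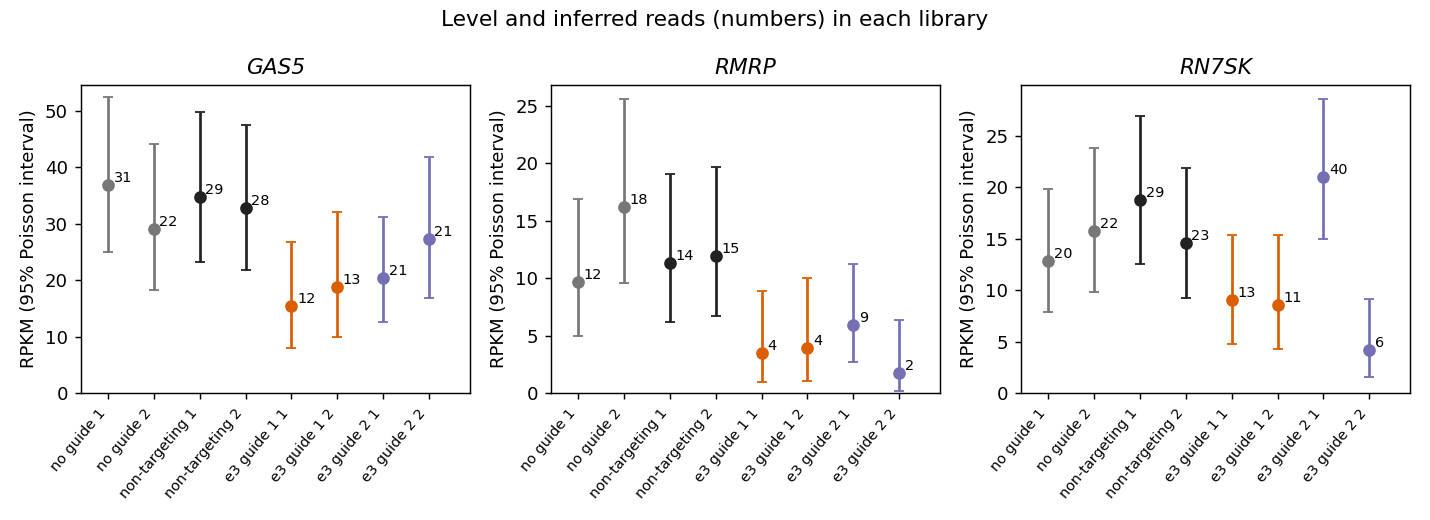
Level in RPKM (vertical axes from 0) of GAS5, RMRP and RN7SK in each of the 8 libraries, with 95% Poisson intervals for counting error and the inferred number of reads printed beside each point. RMRP rested on 12 to 18 reads in the control libraries and on 2 to 9 in the e3 libraries, while RN7SK ranged from 6 to 40 reads with overlapping groups.

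GAS5, a host named for its rise in growth-arrested cells, measured 36.9 and 29.1 RPKM in cells lacking a guide and 34.7 and 32.9 RPKM in non-targeting cells. The e3 cells showed 15.4 and 18.7 RPKM for guide 1, then 20.4 and 27.4 RPKM for guide 2. All e3 values were below all control values, although the second guide 2 library came close to the lowest control. The means were 33.4 ± 3.29 and 20.5 ± 5.05 RPKM (SD, n = 4 each), a ratio of 0.613. The log2 change was -0.70 ± 0.15 (SE; limma, adjusted p = 0.0322). The GAS5 call was lost without any single library except the second without a guide or the second of guide 2, with adjusted p of 0.0274 to 0.0891 over the 8 omissions. It was also lost without the filter on low values (0.066) and when the libraries of a group were averaged (0.407).

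SNHG6 rested on the most reads of the 8 genes. It measured 19.4 and 19.01 RPKM in cells lacking a guide, 21.5 and 22.7 RPKM in non-targeting cells, 18.9 and 18.04 RPKM in guide 1 cells, and 17.6 and 16.5 RPKM in guide 2 cells. The non-targeting libraries were highest, and the e3 values lay just below those without a guide, with no overlap. The log2 change was -0.20 ± 0.08 (SE; limma, adjusted p = 0.184), which did not pass the threshold.

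ZFAS1 measured 59.2 and 53.9 RPKM in cells lacking a guide, 91.5 and 63.5 RPKM in non-targeting cells, 48.8 and 50.6 RPKM in guide 1 cells, and 55.8 and 54.4 RPKM in guide 2 cells. The first non-targeting library stood apart from the other 7, and the guide 2 values lay among those of cells lacking a guide. The log2 change against all controls was -0.32 (limma, adjusted p = 0.222), and -0.17 without that first non-targeting library.

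SNHG1, SNHG5, SNHG7 and SNHG12 had estimates closer to 0. SNHG1 ranged from 25.7 to 35.9 RPKM over control libraries and from 26.03 to 31.8 RPKM over e3 libraries. SNHG5 ranged from 12.4 to 15.5 and from 12.02 to 14.7 RPKM, and SNHG7 from 5.30 to 6.83 and from 5.02 to 5.90 RPKM, in the same order. All 3 overlapped between the groups, with log2 changes of -0.14, -0.13 and -0.14 and adjusted p of 0.528, 0.485 and 0.5 (limma). SNHG12 spread more widely with the e3 guides, from 3.53 to 6.31 RPKM, than in the controls, from 4.50 to 4.91 RPKM, and its log2 change was -0.05 (adjusted p = 0.878, limma).

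The controls differed from each other in 12.4% of tested genes, so the e3 libraries were also set against each control alone. These comparisons share the e3 libraries, and the first shares the non-targeting libraries with the comparisons of single guides below. Against the non-targeting guide, RMRP alone was called, at -1.48 (limma, adjusted p = 0.0313), beside 6.84% of tested genes called and 3.54% called lower. That call was lost without either non-targeting library or either guide 1 library (adjusted p up to 0.179). ZFAS1 at -0.54 (adjusted p = 0.0534), GAS5 at -0.72 (0.0617) and SNHG6 at -0.30 (0.0713) did not pass. ZFAS1 was at -0.28 without the first non-targeting library and at -0.79 without the second. In 6 of the 8 genes, all but SNHG1 and SNHG12, every e3 library lay below both non-targeting libraries, beside 16.3% of tested genes. Against cells without a guide, RMRP was again the only gene called, at -1.58 (adjusted p = 0.0172), beside 16.7% of tested genes called and 8.03% called lower, and GAS5 stood at -0.68 (adjusted p = 0.0519). The RMRP call was lost without the second library without a guide (adjusted p = 0.147).

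Between the controls themselves, 0 of the 8 genes were called by limma, beside the 12.4% of all tested genes, and 2 had an unadjusted p under 0.05. These were ZFAS1, 0.43 higher with the non-targeting guide on the log2 scale (adjusted p = 0.103), and SNHG6, 0.20 higher (adjusted p = 0.169). ZFAS1 was called when the second non-targeting library was left out (0.68, adjusted p = 0.00619), which left the high first library alone in its group, and its difference was 0.17 when the first was left out. SNHG7 and SNHG5 had estimates of 0.25 and 0.17.

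**Figure D3:**
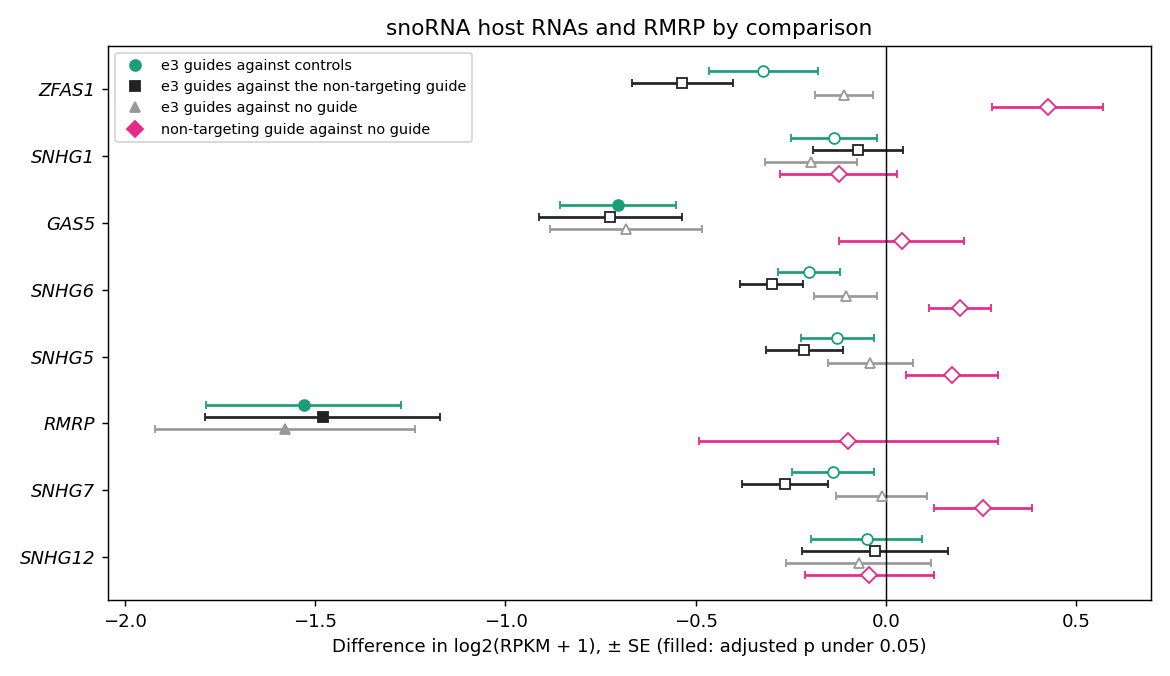
Difference in log2(RPKM + 1) with its SE (horizontal axis) for the 7 hosts and RMRP, for the e3 guides against all controls, against each control alone, and for the controls against each other; filled symbols passed an adjusted p of 0.05. RMRP lies between -1.48 and -1.58 in the 3 comparisons of the e3 guides, and GAS5 between -0.68 and -0.72.

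Each guide was then set against the non-targeting guide in a model of all 4 groups. With guide 1, GAS5 fell by 0.95 on the log2 scale (limma, adjusted p = 0.0198) and was the only one of the 8 called, beside 4.77% of tested genes called and 2.45% called lower. That call was lost without either library of guide 1 or of the non-targeting guide (adjusted p up to 0.122). RMRP stood at -1.43 (adjusted p = 0.0895) and ZFAS1 at -0.61 (0.0602), with ZFAS1 at -0.35 without the first non-targeting library and called at -0.87 without the second (0.0157). SNHG12 had the only estimate above 0, at 0.16. With guide 2, SNHG6 fell by 0.35 (adjusted p = 0.0352) and was the only one called, beside 9.34% of tested genes called and 5.32% called lower. The SNHG6 call was lost in each of the 8 omissions of a library (adjusted p of 0.0518 to 0.177). RMRP stood at -1.53 (0.051), ZFAS1 at -0.46 (0.0974) and GAS5 at -0.50 (0.112). Without the first guide 2 library RMRP was called at -2.19 (0.00894) and GAS5 was at -0.29, and without the second RMRP was at -0.87 and GAS5 at -0.70. ZFAS1 was at -0.20 without the first non-targeting library and called at -0.72 without the second (0.009).

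The 2 guides were compared directly to see whether these calls differed between them. None of the 8 genes was called between guide 2 and guide 1, beside 0.0286% of tested genes, and 1 had an unadjusted p under 0.05 (limma). That gene was GAS5, higher with guide 2 by 0.45 (adjusted p = 0.397; 0.25 to 0.66 over omitted libraries). SNHG12 had an estimate of -0.39 (adjusted p = 0.491; -0.58 to -0.19 over omitted libraries). With 2 libraries a guide, these tests do not show that the guides act alike.

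The other genes of the same pathway were taken from lists fixed by name. Their counts stand beside 2.58% of all tested genes called lower, 2.63% called higher and 22.2% at an unadjusted p under 0.05, and their medians beside -0.02. Beside the 7 hosts, 8 further non-coding snoRNA hosts were tested, of which 2 fell, 0 rose and 6 were not called against the controls, with a median log2 change of -0.48. SNHG3, the host of SNORA73, fell from 24.5 ± 2.94 to 15.7 ± 1.14 RPKM (log2 change -0.61, limma adjusted p = 0.0107). DANCR, which restrains differentiation and hosts SNORA26, fell from 25.8 ± 1.14 to 18.02 ± 1.63 RPKM (-0.50, adjusted p = 0.011). SNHG10 and SNHG9 had estimates of -0.60 and -0.68 (adjusted p of 0.0927 and 0.205).

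Of 43 tested snoRNA hosts that encode proteins, 26 fell, 0 rose and 17 were not called, with a median log2 change of -0.33, beside the 2.58% of all tested genes called lower. The 4 with the smallest p encode proteins of the large ribosomal subunit: RPL12 (-0.44), RPL4 (-0.40), RPL17 (-0.38) and RPL23A (-0.42), with limma adjusted p from 0.00566 to 0.00653. The proteins that bind and assemble snoRNAs gave 4 lower, 0 higher and 15 not called of 19, with a median of -0.24, beside the same 2.58%. Called lower were FBL, the methyltransferase of box C/D particles (-0.31), NOP58, a core protein of the same particles (-0.38), DKC1, the pseudouridine synthase of box H/ACA particles (-0.47), and NAF1, an assembly factor of the latter (-0.53), with adjusted p of 0.0154, 0.0354, 0.0317 and 0.0463. DKC1 is also in the list of protein-coding hosts.

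RMRP works with proteins that RNase MRP largely shares with RNase P. Of 8 tested subunits of RNase MRP and RNase P, 1 fell, 0 rose and 7 were not called, with a median log2 change of -0.04, close to the -0.02 of all tested genes. POP1, the largest protein subunit, fell from 10.2 ± 1.30 to 6.58 ± 1.23 RPKM (log2 change -0.57, limma adjusted p = 0.05, just under the threshold). RPP25L, RPP40 and RPP38 stood at -0.34, -0.26 and 0.10 (adjusted p of 0.229, 0.376 and 0.823). Of 22 tested genes for RNA polymerase III and the factors of promoters like that of RMRP, 0 were called by limma and 4 had an unadjusted p under 0.05, beside 22.2% of all tested genes, with a median of -0.12. Among the smallest p were those of SNAPC3 (-0.51), SNAPC1 (-0.32) and the polymerase repressor MAF1 (-0.19), with adjusted p from 0.117 to 0.196. Of 15 factors of nonsense-mediated decay, the pathway that degrades several host RNAs, 0 were called and 5 had an unadjusted p under 0.05, beside the same 22.2%, with a median of -0.04. The smallest p were those of UPF3B (-0.23), SMG1 (-0.42), SMG9 (0.23) and UPF1 (-0.18), with adjusted p from 0.0882 to 0.158.

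**Figure D4:**
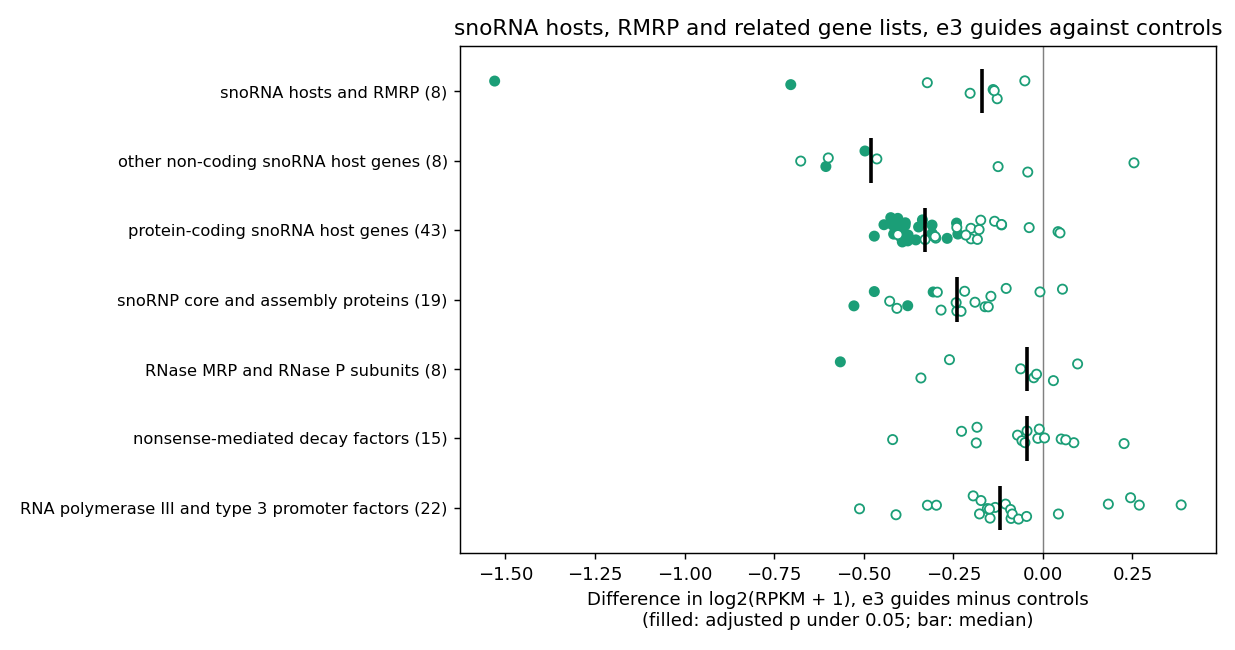
Difference in log2(RPKM + 1) between the e3 guides and the controls (horizontal axis) for each tested gene of 7 lists, with the number of genes in parentheses; filled points passed an adjusted p of 0.05 and bars mark medians. Called genes are all below 0, 26 of them protein-coding hosts, and RMRP at -1.53 is the lowest point.

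The snoRNAs themselves were hardly seen in these libraries of polyadenylated RNA. Of 31 snoRNA symbols from the introns of the hosts, 25 were in the table with 50 genes, 8 of which were above 0 in any library. Only 24 of 400 values were above 0, with a highest value of 7.06 RPKM. These values therefore describe the hosts and not the snoRNAs they yield.

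Counts without strand would mix a host with genes on the other strand, and whether strand was used is not given in the sources used here. In GENCODE 29, GAS5 overlaps GAS5-AS1 and ZBTB37, SNHG6 overlaps MCMDC2, SNHG7 overlaps FAM69B, SNHG12 overlaps TRNAU1AP, and ZFAS1 overlaps ZNFX1, all on the opposite strand. No such overlap was found for SNHG1, SNHG5 and RMRP.

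Genes with the most similar profiles were ranked by the root mean square difference of log2(RPKM + 1) over the 8 libraries, each profile centred on its own mean. Nearest to the mean of the 7 hosts were CBX3 (0.0392), PABPC1 (0.0422), MRPL19 (0.0438), RPS27 (0.0474) and RPL39 (0.0484), against a median of 0.237 over all tested genes. Nearest to RMRP were FTH1P15 (0.349), RP11-700F16.3 (0.355), PCDHGA5 (0.381), RP11-625L16.3 (0.408) and FOXA2 (0.430), against a median of 0.868. The latter 5 were low genes, with means of at most 1.81 RPKM. The ranking is a description of 8 libraries, without a test.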

How the data were processed

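The deposited table gave RPKM per gene, with 1 column for each of the 8 libraries, made by the authors and named RPKM per the file headers. Per the submitters' processing notes, the build was hg19 and Cufflinks was among the tools, while aligner, counting, strand setting and annotation release are not given in the sources used here. Groups came from the sample titles and columns from their names.

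Tests used limma 3.58.1 in R 4.3.3 (moderated by empirical Bayes with a variance trend, two-sided) on log2(RPKM + 1), a scale that understates changes of low genes. The 13979 genes that averaged 1 RPKM or more entered the test, with p-values adjusted over all of them by the Benjamini-Hochberg method. Calls were made at an adjusted p under 0.05. The e3 guides were compared with both controls or with each control in models of 2 groups, and single groups in a model of 4 groups. The comparisons share libraries. On simulated data for e3 guides against controls (13979 genes, 200 of them changed), 81 of 100 genes changed by log2 1 were recovered. Of 100 genes changed by 0.5, 52 were recovered, and there were 9 false calls. The simulation used the spread within groups, without differences between the controls or between the guides. Recovery and false calls in the real libraries may therefore be less favourable.

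Reads were inferred from the steps between RPKM values, which were whole to within 0.03 reads for 13977 of the 13979 tested genes (99.99%), with depth set from single-exon GENCODE 29 models (1964 of 3092 gave the depth used). They served for precision only, since the deposited unit was RPKM. Poisson intervals (95%) cover counting error. Sequences came from GENCODE 29 and RefSeq windows, which are in another build than the table and were matched by name.

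Every gene on the list was to be named, with MYC, the 4 genes of smallest p in each related list (1 of these genes is not reported here) and the 5 most similar profiles. The genes and lists were chosen with earlier results of these data known. Alternatives were other pseudocounts, filters, scalings, omitted libraries, a replicate block and other units of replication.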

Additional observations from a re-analysis of the deposited data

Results flagged for a closer look

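In 16 groups of 4 libraries (the e3 and control libraries of each of the 8 genes), 1 library lay far from the other 3: SNHG1 stood at 31.8 RPKM in the first library of guide 2, the highest of the 4 e3 libraries, while the other 3 lay between 26.03 and 26.4 RPKM. Its gap to the nearest was 0.928 of the range of the group, above Dixon's 95% critical value for 4 samples. Chance alone marks about 1 in 20 such groups.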

How the results depend on the processing

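Against all controls, the count of called genes stayed at 2 with a pseudocount of 0.1, a minimum mean of 5 RPKM, median-ratio scaling and quantile normalization. It was 1 without a filter on low values, 1 with a replicate block, 0 with group means as samples and 0 with an estimated correlation, and ranged from 1 to 2 over omitted libraries. With the replicate block GAS5 was the call lost (adjusted p = 0.0573). Over the whole table, the fit reported called 727 genes, the fit with the block 387, that without the filter 406 and that with group means 1. Against the non-targeting guide, the count of 1 was 0 without a filter and 4 (RMRP, GAS5, SNHG6 and ZFAS1) at a minimum mean of 5 RPKM, and ranged from 0 to 2 over omissions. Against no guide it was 0 without a filter, 2 at a minimum mean of 5 RPKM and 0 to 2 over omissions. Guide 1 against the non-targeting guide gave 0 without a filter, 2 at a minimum mean of 5 RPKM and 0 to 2 over omissions. Guide 2 against it gave 2 at a minimum mean of 5 RPKM, 0 with the replicate block and 0 to 1 over omissions. Between the controls the count of 0 became 1 in 1 omission (0 to 1), and between the guides it stayed 0 in all 14 alternatives. Of 127 alternative changes of single genes against all controls 126 were below 0, and SNHG12 reversed to 0.049 without the second guide 2 library (-0.18 to 0.049 over omissions). Counts without a filter rest on more genes tested (24832), and at 5 RPKM on fewer (9034, without SNHG12). At 5 RPKM the share of all tested genes called was 9.67% against all controls, 13.2% against the non-targeting guide and 23.9% against no guide. It was 9.38% for guide 1 and 16.5% for guide 2 against the non-targeting guide. Without a filter these shares were, in the same order, 1.63%, 1.53%, 6.9%, 1.65% and 3.53%. Other causes were not tested. Over all tested genes, replicate numbers did not pair the libraries (correlations of deviations from -0.0223 to 0.0138 over 6 pairs of groups). These correlations cannot exclude pairing in single RNAs. In RN7SL1 and SNHG1 the first library exceeded the second in every group. In GAS5, RMRP and the other hosts that order varied between groups. The log2 change of GAS5 was the same with the block (-0.70), and why its call was lost was not tested. A library left alone in its group was assumed to vary like the others. Depth limits RMRP and GAS5 most.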

Other observations

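CCDC107, the protein-coding gene next to RMRP in RefSeq, was chosen after its values were seen. It measured 8.93 and 13.5 RPKM in cells lacking a guide, 12.2 and 9.44 RPKM in non-targeting cells, 15.8 and 17.0 RPKM in guide 1 cells, and 13.01 and 16.1 RPKM in guide 2 cells. Its difference between the e3 guides and the controls was 0.47 ± 0.14 on the log2 scale (SE; limma, Benjamini-Hochberg adjusted p = 0.082), opposite in sign to that of RMRP and not past the threshold.

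SNORA44, a snoRNA from an intron of SNHG12, was the intronic snoRNA of smallest p. It measured 3.23 and 1.80 RPKM in cells lacking a guide, was listed at 0 in both non-targeting libraries, and measured 1.74 and 5.86 RPKM in guide 1 cells and 2.63 and 1.77 RPKM in guide 2 cells. Its difference between the e3 guides and all controls was not called (limma, adjusted p = 0.275). Comparisons with the non-targeting libraries, where it is listed at 0, were called by limma. Adjusted p was 0.0263 for the e3 guides, 0.0326 for guide 1 and 0.0489 for guide 2, all higher. Of all tested genes, 6.84%, 4.77% and 9.34% were called in these comparisons. The non-targeting libraries were lower than cells lacking a guide (adjusted p = 0.0322), beside 12.4% of tested genes called. All these calls rest on a group with both values at 0, and read numbers of SNORA44 are not given here. For scale, SNORD3A reached 4.02 RPKM on at most 5 reads per library. Several genes of the table carry this symbol.

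TERC, the telomerase RNA, also a short RNA of the list above, measured 1.95 and 0.541 RPKM in cells lacking a guide and 0.978 and 0.960 RPKM in non-targeting cells. It was listed at 0 in both guide 1 libraries and in the second guide 2 library, and measured 1.59 RPKM in the first.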
